A study of Mus musculus with 12 samples.

Results

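The transcripts of MYC, its partner MAX and the proteins that compete with MYC for MAX were followed through 12 RNA sequencing libraries of cultured mouse B cells. The 10 genes were taken by symbol (Myc, Mycn, Max, Mxd1, Mxd3, Mxd4, Mxi1, Mnt, Mga and Mlx). The table of LPS cultures, with 24015 genes, held all 10, and that of IL7 cultures, with 23973 genes, held 9, so Mnt in IL7 cultures is not analysed here. A filter on low counts left 9 of the 10 in LPS cultures, where Mycn had no reads, and 9 in IL7 cultures.

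The groups were T58A marrow B cells grown with IL7, WT marrow B cells grown with IL7, T58A spleen B cells grown with LPS and WT spleen B cells grown with LPS, each with 3 libraries of cells harvested after 48 h. T58A mice carry a threonine-to-alanine change at residue 58 of MYC, and the WT mice were littermates. IL7 is a cytokine on which B cell precursors depend for growth, and LPS, a component of bacterial walls, makes mature B cells divide, some of which become antibody-secreting plasmablasts. The labels give no age and no sex, and do not say which animal gave which library or whether 1 or both alleles are changed, so the spread between libraries may be technical in part. Reads from mutant and normal Myc alleles are counted together, so the counts do not check the genotype.

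MYC and MYCN bind DNA at the E-box, CACGTG, only as a pair with MAX, and raise transcription of genes of growth and metabolism. MXD1, MXD3, MXD4, MXI1 and MNT also pair with MAX, bind the same sequence and recruit SIN3 and histone deacetylases, which lower transcription, while MGA joins MAX to a Polycomb complex. MLX is a MAX-like partner for MLXIP, MLXIPL and some of the MXD proteins, and in B cells Myc is known as the regulator of growth after activation.

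The codon changed in T58A lies in exon 2 of Myc, at chr15:61987693-61987695 on the forward strand (GRCm38, GENCODE M21), in a reading frame of 439 codons. Phosphorylation of this threonine, which follows that of the serine at codon 62, marks MYC for degradation. The reference sequence of codons 53 to 63 (chr15:61987678-61987710) is shown with codon 58 in capitals, to place the change; it is the normal sequence and not one read from these libraries.
Myc codons 53 to 63: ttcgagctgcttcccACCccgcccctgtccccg

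To show which members carry the network's own motif, the E-box was searched in the RefSeq promoters of the members (GRCm38.p6), each from 250 bases before to 50 after the start. CACGTG reads the same on both strands and overlaps no other motif searched. Myc had no entry among these promoters, so its own promoter was not searched. The motif was found in 4 of the 9 member genes with an entry, Mxd4, Mnt, Mlx and Max. Over all 27025 genes with an entry it was found in 8.09% (7.15% of 32851 promoters). A match describes the letters of the window and not binding. The stretches of 30 bases around the motif, with the E-box in capitals, were at chr5:34187912-34187941 (reverse strand) for Mxd4, chr11:74830789-74830818 (forward strand) for Mnt, chr11:101087238-101087267 (forward strand) for Mlx and chr12:76962234-76962263 (reverse strand) for Max. The motif started at -219, -123, -40 and -3 from the start site in that order.
Mxd4: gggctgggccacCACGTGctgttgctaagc
Mnt: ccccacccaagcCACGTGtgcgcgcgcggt
Mlx: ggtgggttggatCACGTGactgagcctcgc
Max: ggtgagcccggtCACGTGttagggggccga

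Depth ranged over 8486753 to 10201113 reads in IL7 libraries and over 5110746 to 9332410 in LPS libraries, counting reads that fell in genes. Summed precursor B cell markers were at 2091 to 2990 CPM (reads per 1000000 reads in genes) in the IL7 libraries and at 41.4 to 82.6 CPM in the LPS libraries. Among them Igll1, a part of the surrogate light chain, was at 707 to 939 CPM in IL7 and at 0 to 0.387 CPM in LPS libraries. By sex-linked transcripts, all T58A libraries and WT 3 were male in LPS as in IL7 cultures. WT 1 was female in both, and WT 2 was female in LPS cultures and mainly female in IL7 cultures. Sex thus moved with genotype outside the pair numbered 3. The IL7 library WT 2 held reads of the Y-linked Kdm5d (35), Eif2s3y (65), Ddx3y (47) and Uty (38), which WT 1 had at 0 to 2 reads. The source of these reads was not tested. Igj, the antibody joining chain, was at 66.2 CPM in the IL7 library WT 2 against 2.29 to 11.2 CPM in the other IL7 libraries. The titles number T58A and WT libraries as pairs. In the IL7 table the columns carry these numbers, whereas among the LPS columns 2 of the 3 T58A ones share a header and appear here as the first and the second unnumbered column.

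In IL7 cultures Myc and Mga rose in T58A cells and Mxd1 and Mxd3 fell, when each T58A library was compared with its numbered partner. Mxd4 was lower in each pair without passing the test, and Mycn, Max, Mxi1 and Mlx did not pass. The 4 calls rest on the pairing: limma with the pair as a block called 12.7% of 11604 genes at an adjusted p under 0.05 (6.41% higher and 6.31% lower in T58A), whereas limma without the block called 0 genes (0%) and none of the members. Without the block, 1960 genes had an unadjusted limma p under 0.05, 3 of them members (Mxd1, Mxd3 and Mga). There edgeR and limma-voom called 0 genes and DESeq2 called 310, with no member among the 310. In bulk RNA, fewer cells of a type and less RNA per cell cannot be told apart.

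Myc (chr15:61985391-61990374), the transcription factor that carries the mutation, had 3038, 4397 and 4827 normalised reads in T58A libraries 1, 2 and 3, against 2010, 3204 and 3858 in WT libraries 1, 2 and 3. Each T58A library was above its own partner, but the groups overlapped, since T58A 1 lay below WT 2 and WT 3. The values averaged 4087 ± 934 in T58A and 3024 ± 937 in WT (SD, n = 3 each). The spread between pairs was thus close to the difference between genotypes. The log2 change, on log2 of the normalised reads plus 1, was 0.46 ± 0.07 (SE) with the block and its limma adjusted p was 0.00791. Without the block the SE was 0.25 and the limma adjusted p was 0.378.

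Mga (chr2:119897228-119969581), the largest protein of the network, had 2056, 2321 and 2266 normalised reads in T58A libraries 1, 2 and 3, against 1457, 2017 and 1925 in WT libraries 1, 2 and 3. The genotypes did not overlap, and the smallest gap was that between T58A 1 and WT 2. Its log2 change was 0.31 ± 0.08 with the block (limma adjusted p = 0.0331) and its adjusted p without the block was 0.279.

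Mxd1 (chr6:86647042-86669161) encodes a repressor known for its rise as blood cells leave the cell cycle. It had 149.5, 164.3 and 165.5 normalised reads in T58A libraries 1, 2 and 3, against 233.9, 214.7 and 235.6 in WT libraries 1, 2 and 3. The groups did not overlap and the spread within each was small, with SDs of 8.89 in T58A and 11.6 in WT. The log2 change was -0.51 ± 0.12 with the block (limma adjusted p = 0.0283) and the adjusted p without it was 0.170.

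Mxd3 (chr13:55325168-55329823), the MXD member known for expression in dividing cells, had 446.5, 465.1 and 401.4 normalised reads in T58A libraries 1, 2 and 3. It had 633.9, 586.1 and 515.3 in WT libraries 1, 2 and 3. Every T58A library lay below every WT library. The log2 change was -0.40 ± 0.08 with the block (limma adjusted p = 0.0214), and the adjusted p without it was 0.190. Groups that did not overlap were common in IL7 cultures, at 12.9% of genes for higher and 10.8% for lower in T58A, so the 1 higher and 2 lower members are to be read against these shares.

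Mxd4, a repressor of the same family, had 304.5, 197.4 and 169.3 normalised reads in T58A libraries 1, 2 and 3, against 382.4, 222.8 and 225.7 in WT libraries 1, 2 and 3. Pair 1 was high in both genotypes, and each T58A library was below its partner. Its log2 change was -0.30 ± 0.11 with the block (limma adjusted p = 0.101). In all, 2 of the 9 members were higher in T58A in each of the 3 pairs (25.9% of all genes were) and 3 of 9 were lower in each (26.0% of all genes were).

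Mycn, the second MYC gene measured, had 174.3, 346.2 and 486.0 normalised reads in T58A libraries 1, 2 and 3, against 350.8, 417.6 and 342.4 in WT libraries 1, 2 and 3. Its pairs went different ways, with log2 differences of -1.01, -0.27 and 0.50, and the T58A libraries spread over a wider range than the WT ones. Its limma log2 change of -0.26 ± 0.23 with the block did not pass (adjusted p = 0.488) and changed sign, to 0.12, when pair 1 was left out.

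Max, the common partner, stood at 1428 ± 126 normalised reads in T58A and 1439 ± 63.02 in WT (SD, n = 3 each), a log2 change of -0.01 ± 0.08 with the block. Mxi1, a repressor, stood at 339.8 ± 30.6 in T58A and 329.4 ± 49.8 in WT, a log2 change of 0.05 ± 0.10. Mlx stood at 381.2 ± 8.07 in T58A and 399.2 ± 19.1 in WT, a log2 change of -0.07 ± 0.09. None of the 3 passed (limma adjusted p of 0.667 to 0.930), and the ranges of the genotypes overlapped for each.

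**Figure D1:**
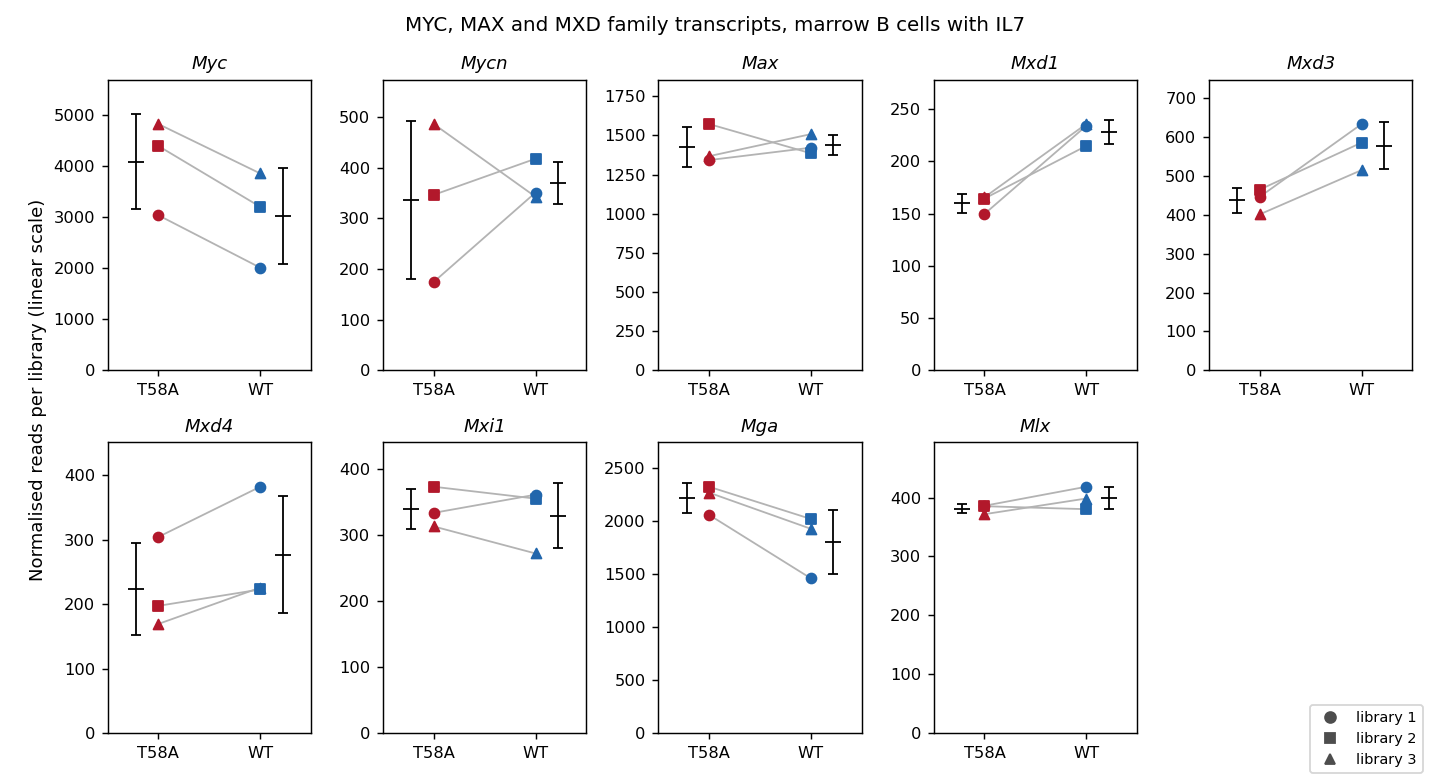
Normalised reads of the 9 members in each IL7 library, on linear axes from 0, with T58A left and WT right. Symbols are libraries, grey lines join numbered pairs, and black bars are the mean ± SD of 3 libraries. Myc and Mga are higher and Mxd1, Mxd3 and Mxd4 lower in T58A in all 3 pairs, while the Mycn lines cross.

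With a pair left out few libraries remain, so p rests mostly on the variance that limma takes from other genes. Of the 4 calls, that of Myc was kept when any 1 pair was left out. Its log2 changes were 0.39, 0.46 and 0.53 without pairs 1, 2 and 3, with limma adjusted p of 9.00e-04, 0.0284 and 0.0128. Mga lost its call without any 1 of the pairs (limma adjusted p of 0.0579 to 0.0721), with log2 changes of 0.22, 0.37 and 0.35 without pairs 1, 2 and 3. Mxd1 lost it likewise (0.0602 to 0.0922), with changes of -0.45, -0.57 and -0.51. Mxd3 kept its call without pair 1 (0.0335) and lost it without pair 2 (0.0591) or pair 3 (0.0633), with changes of -0.35, -0.43 and -0.42. In the fit without the block, 1 library moved values further: without WT 1 the log2 change of Myc was 0.19 and that of Mga 0.17. In the male pair, pair 3, the log2 differences of Myc, Mga, Mxd1 and Mxd3 were 0.32, 0.24, -0.51 and -0.36. These genes were named from a fit that includes pair 3, so its shared direction with the other pairs was nearly given beforehand. The part of sex in the changes was not tested. Summed B lineage markers were at 4563, 3650 and 3063 CPM in T58A libraries 1, 2 and 3, against 7846, 4798 and 3967 CPM in WT libraries 1, 2 and 3, lower in T58A in each pair. Summed precursor B cell markers were at 2091 to 2361 CPM in T58A and 2445 to 2990 CPM in WT. Summed myeloid markers were at 69.5, 89.8 and 38.2 CPM in T58A libraries 1, 2 and 3, against 115, 60.4 and 193 CPM in WT libraries 1, 2 and 3, lower in T58A in pairs 1 and 3 and higher in pair 2. The part of these markers in the changes was not tested. DESeq2 with the block called Myc, Mga and Mxd3 but not Mxd1 (adjusted p = 0.0915), and in the authors' deposited table, which called 9.64% of 10742 genes, the same 3 had an adjusted p under 0.05 and Mxd1 had 0.102.

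In LPS cultures no member passed in either direction. limma without a block called 0 of 11291 genes (0%), with 284 genes at an unadjusted p under 0.05 and none of them a member. On the recovered reads, edgeR and limma-voom called 0 genes and DESeq2 called 1. With the first unnumbered column paired with WT 1, limma with a block called 0.0354% of genes. The authors' deposited table called 4.20% of 5359 genes, and no member was among either. In the authors' values Mxd1, Mxd3 and Mycn had no adjusted p, so these members could not be called there.

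Myc had 961.3, 1418 and 693.3 normalised reads in the first unnumbered column, the second unnumbered column and library 3 of T58A, against 748.7, 1095 and 731.3 in WT libraries 1, 2 and 3. The second unnumbered T58A column and WT 2 were the high ones, and the genotypes overlapped. The log2 change was 0.22 ± 0.27 (limma adjusted p = 1), and it was -0.047 without the second unnumbered column. The same 2 libraries had the lowest Igj of their genotype, at 1406 CPM in the second unnumbered T58A column against 3406 and 5456 CPM in the other T58A libraries. In WT 2 it was at 2578 CPM, against 9027 and 8630 CPM in WT 1 and WT 3. Sdc1, another plasmablast marker, was also lowest in these libraries, at 13.8 CPM in the second unnumbered T58A column and 18.3 CPM in WT 2. Prdm1, a further one, was at 203, 220 and 327 CPM in the first unnumbered column, the second unnumbered column and library 3 of T58A. Its lowest T58A library was thus the first unnumbered column, while in WT it was lowest in WT 2, at 328 CPM. The part of these plasmablast markers in the spread of Myc was not tested.

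Mnt (chr11:74830920-74845725), a repressor found in most cell types, gave the largest difference among the members in LPS cultures. It had 386.4, 615.7 and 374.5 normalised reads in the first unnumbered column, the second unnumbered column and library 3 of T58A, against 318.7, 362.2 and 338.1 in WT libraries 1, 2 and 3. No T58A library reached down to the WT range, a separation found for 3.10% of genes in this direction and for 3.30% in the other, and the second unnumbered column stood far above the rest. The log2 change was 0.40 ± 0.21 (limma adjusted p = 1), and it was 0.16 without that column. With the first unnumbered column paired with WT 1, the limma adjusted p was 0.172.

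Mxi1 followed the same libraries as Myc, with 450.0, 723.3 and 296.3 normalised reads in the first unnumbered column, the second unnumbered column and library 3 of T58A. It had 394.2, 497.9 and 289.0 in WT libraries 1, 2 and 3, so that the second unnumbered column and WT 2 were again the high ones. Its log2 change was 0.25 ± 0.32, and it was -0.073 without the second unnumbered column. Mlx ran the other way, with 326.4, 255.2 and 424.4 normalised reads in the first unnumbered, the second unnumbered column and library 3 of T58A, against 416.2, 311.2 and 485.5 in WT libraries 1, 2 and 3. For Mlx these libraries were the low ones, the genotypes overlapped and the log2 change was -0.28 ± 0.23. Its SE was 0.095 and its limma adjusted p 0.195 with the first unnumbered column paired with WT 1.

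Mxd1 and Mxd3, which fell in IL7 cultures, had log2 changes of 0.06 ± 0.19 and 0.00 ± 0.17 in LPS cultures. Mxd1 averaged 210.3 ± 39.0 normalised reads in T58A and 200.1 ± 19.7 in WT, and Mxd3 averaged 199.4 ± 21.7 in T58A and 199.1 ± 9.37 in WT (SD, n = 3 each). Mga, Max and Mxd4 had log2 changes of 0.13 ± 0.18, 0.16 ± 0.15 and -0.07 ± 0.29, with overlapping genotypes.

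**Figure D2:**
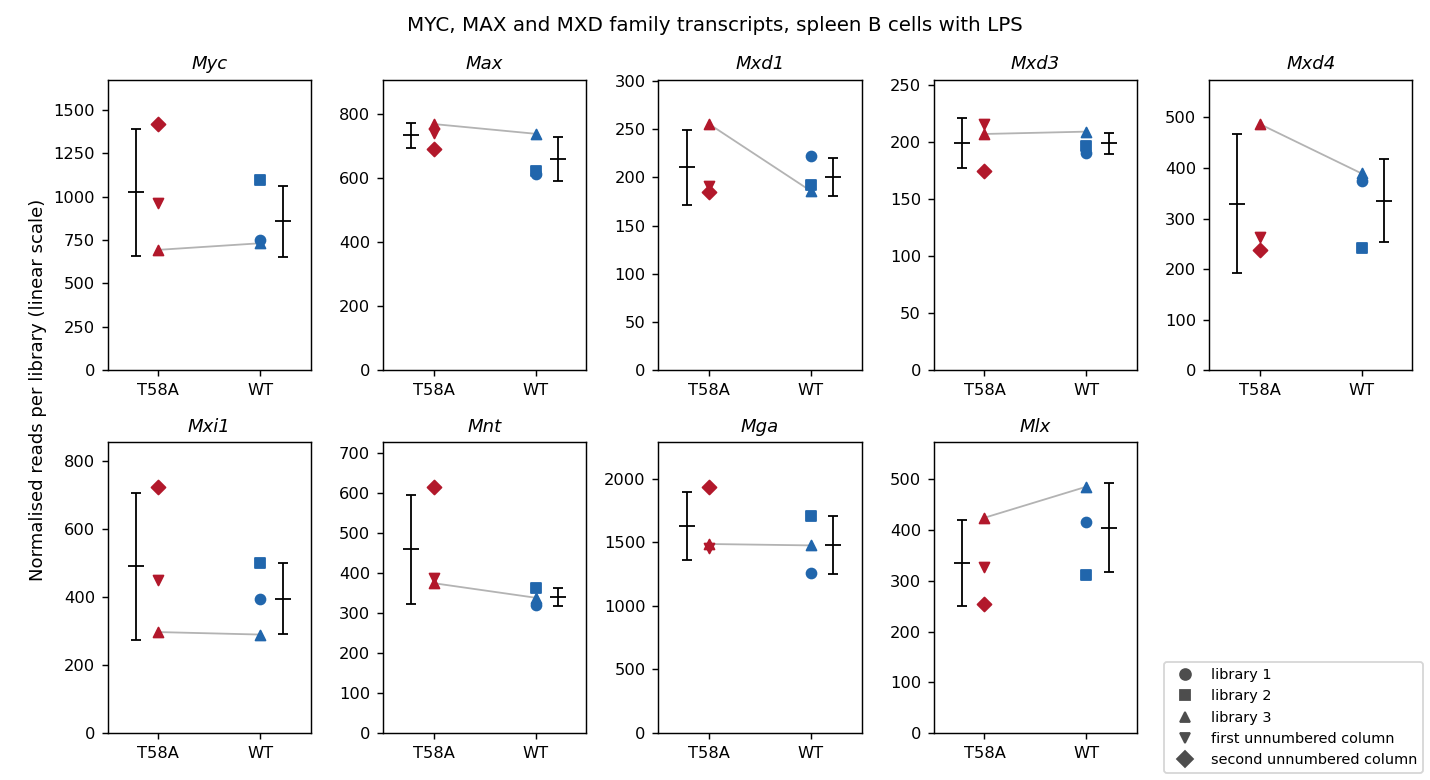
Normalised reads of the 9 members with reads in the LPS libraries, on linear axes from 0, with T58A left and WT right. Symbols are libraries, the grey line joins the only pair numbered in the columns, and black bars are the mean ± SD of 3 libraries. Mnt is the only one of the 9 whose genotypes do not overlap, and the second unnumbered T58A column is highest for Myc, Mxi1, Mnt and Mga and lowest for Mlx, Mxd1, Mxd3 and Mxd4.

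Whether the T58A effect differed between LPS and IL7 cultures was tested for the 8 members that could be fitted in both. limma without a block called 0 of 10767 genes (0%), with 479 at an unadjusted p under 0.05, edgeR and limma-voom called 0 and DESeq2 called 4. The largest difference was that of Mxd1, at 0.57 ± 0.22 on the log2 scale, LPS minus IL7 (limma adjusted p = 0.996), and next came Mxd3 at 0.40 ± 0.19 (adjusted p = 0.996). With pairs as a block, taking the first unnumbered LPS column with WT 1, 4.10% of genes were called and again no member, with limma adjusted p of 0.137 for Mxd1 and 0.154 for Mxd3. For Myc the difference was -0.24 ± 0.40, so its effects in LPS and in IL7 cultures were not shown to differ.

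**Figure D3:**
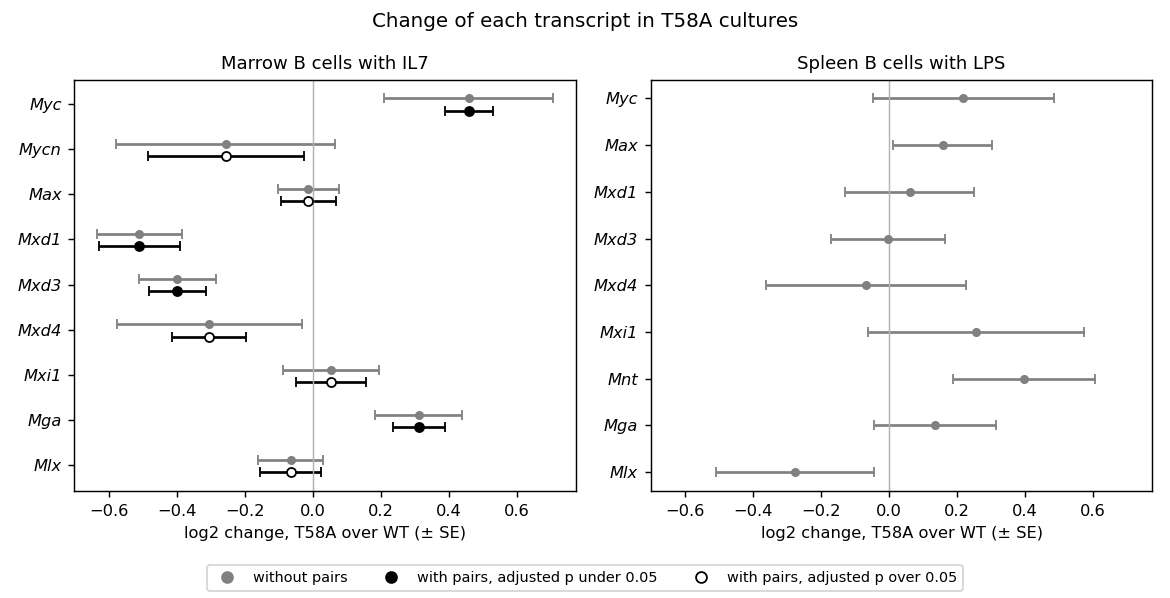
Log2 change of each member, T58A over WT, with bars of ± 1 SE, in IL7 cultures (left panel) and LPS cultures (right panel, without pairs). Grey points are fits without pairs and black points fits with pairs, filled where the limma adjusted p was under 0.05. Myc and Mga to the right and Mxd1 and Mxd3 to the left are filled in IL7 cultures, and no member passed in LPS cultures.

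Myc, Mycn, Max and Mxd3 were lower and Mxd1 and Mxi1 higher in LPS than in IL7 cultures. The cultures differ in tissue, stage and stimulus together, and the tables were normalised separately, so levels are given in CPM over the 6 libraries of each culture, with no test. Of 9 members with rows in both tables, 4 were lower in LPS cultures without overlap, 2 were higher without overlap and 3 overlapped. Over 12086 genes, 30.7% were lower and 20.3% higher without overlap, and the median log2 difference was -0.14.

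Myc was at 101 to 212 CPM in LPS cultures and at 217 to 504 CPM in IL7 cultures, with means of 138 ± 43.5 and 379 ± 105 (SD, n = 6 each). The highest LPS library stayed just below the lowest IL7 library. Mycn, known for its place in early progenitors, had 0 of 41876316 reads over the 6 LPS libraries, where 3 reads correspond to 0.321 to 0.587 CPM per library, and 18.7 to 50.8 CPM in IL7 cultures. The lowest IL7 library was thus at least 31.8-fold above the limit that a count of 0 allows in any LPS library. In IL7 cultures Mycn per exon length reached 4.73%, 6.49% and 8.30% of Myc in T58A libraries 1, 2 and 3, against 14.4%, 10.7% and 7.32% in WT libraries 1, 2 and 3.

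Max was at 87.5 to 112 CPM in LPS cultures and 143 to 167 CPM in IL7 cultures, and Mxd3 at 26.1 to 31.7 CPM in LPS cultures and 41.9 to 68.4 CPM in IL7 cultures. Both were lower in every LPS library than in every IL7 library. Mxd1 was at 27.0 to 37.3 CPM in LPS cultures and 16.01 to 25.2 CPM in IL7 cultures, and Mxi1 at 42.0 to 108 CPM in LPS cultures and 29.1 to 39.7 CPM in IL7 cultures. These were the 2 members higher in every LPS library. Mxd4 averaged 48.6 ± 14.3 CPM in LPS cultures and 26.8 ± 8.64 CPM in IL7 cultures, and Mlx 54.0 ± 11.9 CPM in LPS cultures and 41.7 ± 2.09 CPM in IL7 cultures (SD, n = 6 each), with ranges that overlapped. Mga was close in both, at 228 ± 38.6 CPM in LPS cultures and 214 ± 31.4 CPM in IL7 cultures.

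Per kb of merged exons, the order of mean levels in LPS cultures was Myc (51.0 CPM per kb), Max (28.3), Mlx (27.0), Mga (14.9), Mnt (12.7), Mxd3 (12.3), Mxi1 (9.52), Mxd4 (5.72), Mxd1 (4.25) and Mycn (0). There Myc stood above Max, Mlx above Mga and Mxd1 above Mycn without overlap of libraries, and the other neighbours overlapped. In IL7 cultures the order was Myc (139 CPM per kb), Max (42.6), Mxd3 (22.9), Mlx (20.9), Mga (14.0), Mycn (11.4), Mxi1 (5.24), Mxd4 (3.16) and Mxd1 (2.93). Myc above Max, Max above Mxd3 and Mlx above Mga did not overlap there, and the other neighbours did. With the longest transcript as the length, Myc and Max overlapped in LPS cultures, at means of 59.2 and 52.5 CPM per kb, and Max and Mlx (27.5) no longer did. The middle of the LPS order then ran Mxd3 (16.8), Mga (16.4), Mxi1 (12.9) and Mnt (12.8), with neighbours that overlapped except for Mlx above Mxd3. In IL7 cultures the order stayed as it was, and Mxd3 and Mlx no longer overlapped.

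**Figure D4:**
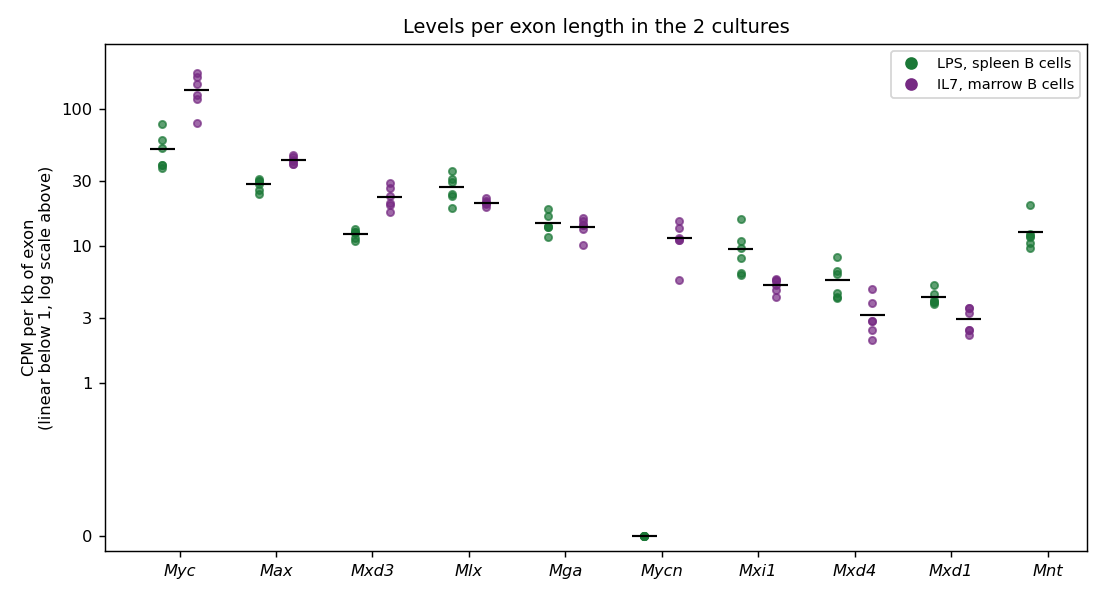
Level of each member in CPM per kb of merged exon, with LPS libraries left and IL7 libraries right of each name, 6 points each. Bars are means, and the axis is linear below 1 and logarithmic above it. Myc, Max, Mxd3 and Mycn are lower in all LPS libraries, with Mycn at 0, and Mxi1 and Mxd1 are higher. Mnt is shown for LPS only.

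As a description, the level of Myc per kb was divided by the sum of the repressors Mxd1, Mxd3, Mxd4 and Mxi1 per kb. Mnt, which had no values in IL7 cultures, and Mycn were left out, so the ratio covers only part of the network. In IL7 cultures this ratio was 3.80, 5.44 and 6.87 in T58A libraries 1, 2 and 3, against 1.86, 3.31 and 4.48 in WT libraries 1, 2 and 3. Each T58A library was above its own partner, and T58A 1 lay below WT 3. In LPS cultures the ratio was 1.64, 2.23 and 1.14 in the first unnumbered column, the second unnumbered column and library 3 of T58A, against 1.29, 1.90 and 1.33 in WT libraries 1, 2 and 3, with overlapping genotypes. Because the calls above chose the direction of its parts, no test was made of the ratio in IL7 cultures.

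Across the 12 libraries, with each culture centred on its own mean, the members lined up with Myc in different ways. Pearson's r with Myc, on log2 of CPM plus 1, was 0.88 for Mga, 0.54 for Mxi1 and 0.00 for Max. It was -0.50 for Mxd1, -0.63 for Mxd3, -0.78 for Mlx and -0.93 for Mxd4. The 5th and 95th percentiles of r over 8821 genes were -0.73 and 0.70, so Mga lay above the upper one and Mlx and Mxd4 below the lower one. Mxd4 kept its sign in both cultures (-0.89 in LPS and -0.96 in IL7), whereas Mxi1 was at 0.96 in LPS and at -0.41 in IL7. The genes most like Myc were Qser1 (0.93), Hdac4 (0.92), Zmiz1 (0.91), Otud4 (0.91) and Clasp2 (0.91), and those least like it were Trappc2l (-0.95), Sh3bgrl3 (-0.95) and Glcci1 (-0.95). The libraries share genotype, depth and culture, so r is a description. Transcript length moved with it: the longest transcript had a median of 5231 bases among the 5% of genes with the highest r, 2568 bases among the 5% with the lowest and 3502 bases over 8542 genes with a length. The part of length in these values was not tested.

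**Figure D5:**
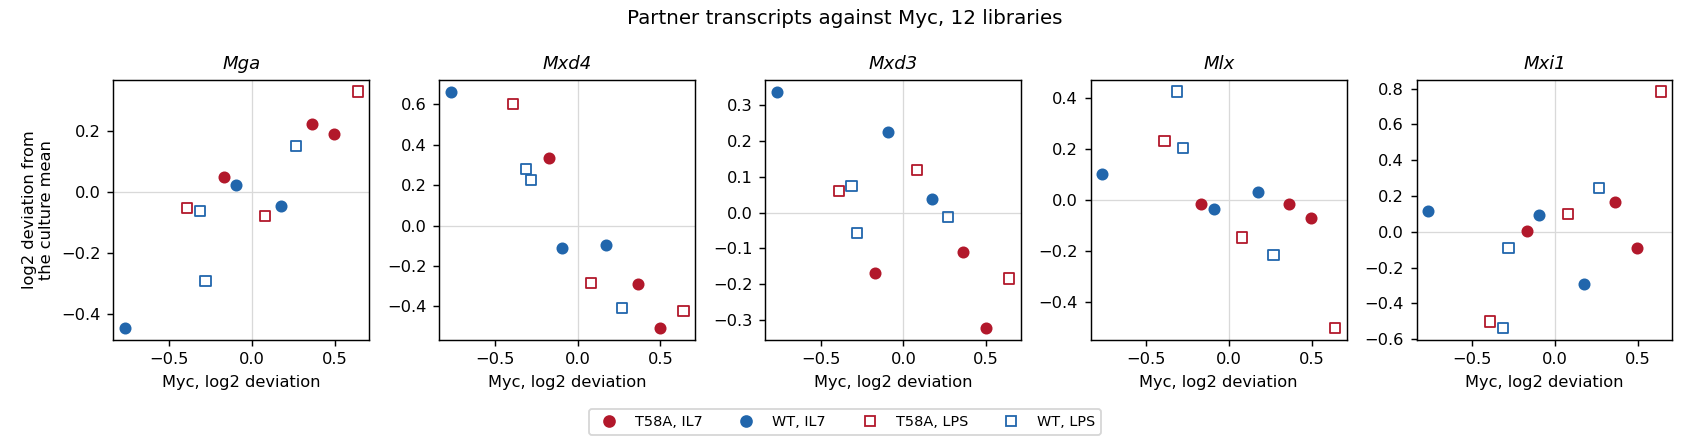
Mga, Mxd4, Mxd3, Mlx and Mxi1 against Myc in 12 libraries, as log2 of normalised reads plus 1 minus the mean of the culture. Filled circles are IL7 and open squares LPS libraries. Mga runs up and Mxd4 and Mlx run down with Myc in both cultures. Computed on log2 of CPM plus 1, Mxi1 has r of 0.96 with Myc in LPS and -0.41 in IL7 libraries.

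Around the members, cofactors of MYC and genes it induces were among those that rose in IL7 cultures. With the block, 6 of 16 MYC coactivators rose and none fell, against 6.41% and 6.31% of all genes, and the median log2 change of the list was 0.21 against -0.01 over all genes tested. They included Hcfc1, a chromatin cofactor that MYC binds (0.42 ± 0.07, limma adjusted p = 0.00799), Ep400, the ATPase of a histone exchange complex (0.40 ± 0.08, 0.0158), and Ruvbl2, a helicase of the same complex (0.31 ± 0.07, 0.0221). Of 15 genes known to be induced by MYC, 9 rose and none fell, with a median of 0.35. The 3 with the smallest p were Cad, which starts pyrimidine synthesis (0.68 ± 0.07, limma adjusted p = 0.00281), Srm, spermidine synthase (0.49 ± 0.06, 0.00468), and Ldha, lactate dehydrogenase (0.57 ± 0.08, 0.00555). Without pair 2, the counts were 4 of 16 and 4 of 15, in a fit where 344 of 11610 genes rose. Without the block they were 0 of either, in a fit that called 0 genes.

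On the side of the repressors, 0 of 16 SIN3 and histone deacetylase genes passed with the block in IL7 cultures. Of 8 partners of MGA in its Polycomb complex, 0 passed. Of all genes 12.7% passed there, and whether counts of 0 in lists this short differ from that share was not tested. The median log2 changes of these lists were -0.06 and 0.16. The smallest p among them belonged to Rbbp7, a histone-binding subunit (0.22 ± 0.06, limma adjusted p = 0.0566), and to Tfdp1, a partner of E2F6 (0.27 ± 0.07, 0.0502). Mycl and Mlxip, the other network genes with enough reads, had log2 changes of -0.09 ± 0.36 and 0.00 ± 0.07. Txnip, a known target of MLX and MLXIP that restrains glucose uptake, had -0.38 ± 0.11 (limma adjusted p = 0.0525), and the noncoding Pvt1 beside Myc had 0.27 ± 0.16 (adjusted p = 0.299). In LPS cultures 0 genes of any of these lists passed, with or without a block, where 0.0354% and 0% of all genes did. The medians of the coactivators and of the MYC-induced genes there were 0.13 and 0.23.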

How the data were processed

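Per the submitters' processing notes, libraries were demultiplexed with bcl2fastq 1.8.4 and processed with TopHat2 2.1.0, HTSeq 0.6.1 and DESeq2 on build mm10; per the labels' protocols, total RNA went into TruSeq v2 libraries. The authors deposited a signal per gene and library, whose values are whole reads divided by 1 factor per library (100% whole within 0.001), called normalised reads here, and their own log2 fold changes and p-values with adjusted p-values. Depth was 5110746 to 10201113 reads; limits cover counting error only, and the kit marks no strand, so overlapping transcripts are counted together. CPM are shares of the recovered reads. No column was left unused.

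limma 3.58.1 in R 4.3.3 was run on log2 of the value plus 1, all genes in 1 fit per culture, after filterByExpr of edgeR 4.0.16 (minimum count 10, total 15), with Benjamini-Hochberg adjustment at 0.05 and without a block. The plan had foreseen this form for normalised values. In IL7 cultures same-numbered libraries deviated together (correlations 0.41, 0.15 and 0.40, against -0.36 to -0.05 for other pairings), and the titles name pairs, so values with pairs as a block are printed beside it. Members matched GENCODE M21 by symbol (10 of 10). Named genes were the members, up to 3 called genes per list and direction with the smallest p or else up to 2 uncalled ones, and the 5 most and 3 least like Myc among genes of at least 10 CPM. The members, lists and rules were chosen with earlier results of these data known. The limma and edgeR steps were run on simulated IL7 counts, with and without a block. These counts held no difference between pairs, so they cannot check what the block removes. DESeq2, the LPS fits and the difference between cultures were not run on them. Figures used matplotlib 3.10.9.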

Additional observations from a re-analysis of the deposited data

Results flagged for a closer look

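For Cad, the T58A effect differed between LPS and IL7 cultures when pairs entered as a block, by -0.57 ± 0.11 on the log2 scale, LPS minus IL7 (limma adjusted p = 0.0196). That fit takes the first unnumbered LPS column as the partner of WT 1, which was assumed after the data had been seen, and without the block the limma adjusted p was 0.996. Cad was at 1125 ± 235 normalised reads in T58A and 1038 ± 191 in WT in LPS cultures. In IL7 cultures it was at 4990 ± 226 in T58A and 3141 ± 412 in WT (SD, n = 3 each). No member of the MYC and MAX network met any of the criteria for a closer look, and groups of 3 libraries were not examined for single outlying libraries.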

How the results depend on the processing

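Of 561 alternative values for the 26 log2 changes of members, 519 kept their direction and side of the threshold, 15 passed the threshold only then, all in IL7 cultures with the block, and 27 changed sign, in 11 of the 26. The scalings moved the median of all genes by at most 0.06 (log2). Without the block, members past the threshold were 0 in each comparison when any library was left out. In IL7 cultures the block gave 1476 genes and 4 members, DESeq2 310 genes without the block and 1053 genes and 3 members with it, and edgeR with the block 1424 genes and 4 members. Leaving out pairs 1, 2 and 3 in the block fit gave 1396, 775 and 840 genes, and 2, 1 and 1 members. In LPS cultures the planned block could not be fitted for want of numbers; the replicate block with the first unnumbered column beside WT 1 (correlations 0.34, 0.66 and 0.54 with the second column beside WT 2, against -0.50 to -0.05 otherwise, a hint from the data and not the labels) gave 4 genes and DESeq2 1 gene, and exchanging the unnumbered columns gave 0; for the difference between cultures the block gave 441 genes and DESeq2 4. Leaving out a library gave 0 to 2 genes in IL7 cultures, 0 to 6 in LPS cultures and 0 to 3 for the difference, and 6 to 7 members apart between the cultures.

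Where signs changed, the cause was not tested, and none of those values passed the threshold. With the block, Mycn in IL7 cultures was at 0.12 without pair 1, Max at 0.021 without pair 1 and 0.050 without pair 3, and Mxi1 at -0.021 without pair 3. Mxd3 in LPS cultures was at 0.0021 with TMM and 0.014 with total counts. Leaving out 1 library without the block, the IL7 ranges were 0.19 to 0.66 for Myc, 0.17 to 0.40 for Mga, -0.55 to -0.46 for Mxd1, -0.48 to -0.33 for Mxd3, -0.55 to -0.049 for Mxd4, -0.58 to 0.15 for Mycn, -0.085 to 0.029 for Max and -0.079 to 0.12 for Mxi1. The LPS ranges were -0.047 to 0.47 for Myc, -0.086 to 0.15 for Mxd1, -0.063 to 0.088 for Mxd3, -0.39 to 0.13 for Mxd4 and -0.073 to 0.57 for Mxi1. For the difference between cultures they were -0.51 to 0.029 for Myc, -0.082 to 0.48 for Mxd4 and -0.13 to 0.52 for Mxi1. The LPS blocks, the edgeR block and leaving out pairs 1 and 3 were chosen after seeing the data.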

Other observations

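Mycl, the third MYC gene, had few reads in both cultures. In LPS cultures it had 19.2, 43.0 and 12.7 normalised reads in the first unnumbered column, the second unnumbered column and library 3 of T58A, against 5.49, 23.3 and 15.7 in WT libraries 1, 2 and 3, and the second unnumbered column and WT 2 were the high libraries of their genotypes. In IL7 cultures it had 14.0, 17.6 and 18.1 normalised reads in T58A libraries 1, 2 and 3, against 22.3, 19.9 and 12.1 in WT libraries 1, 2 and 3. Mlxipl, the glucose-responsive partner of MLX known from liver, had 0 reads in the LPS T58A libraries and 1 read in the LPS WT libraries, and 8 reads in the IL7 T58A and 4 in the IL7 WT libraries. Mlxip was well expressed, at 2036 ± 487 normalised reads in T58A and 1868 ± 386 in WT in LPS cultures, and at 2062 ± 134 in T58A and 2062 ± 175 in WT in IL7 cultures (SD, n = 3 each).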
